A study of Homo sapiens with 3 samples.

Results

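The difference described here is that between MDA-MB-231 cells transfected with an FBP1 expression vector and a control of the same line named wt. It was read from 1 Illumina bead array for each. Genes entered when the detection p-value of their brightest probe was under 0.01 on the FBP1 array or on the wt array. This kept 12404 of the 20045 genes with a probe, of which 10765 were detected on both arrays, 835 on the FBP1 array alone and 804 on the wt array alone. Just inside that limit lay UBXN10, with a lower detection p-value of 0.00999829, and just outside it CHRNG, with 0.0100138.

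MDA-MB-231 is an established human line of triple-negative, mesenchymal-like breast cancer. The series held 3 arrays in 3 groups of 1, all of total RNA: cells given the FBP1 vector, cells given the empty vector, and wt cells. The labels do not say how the wt cells were handled, so an effect of FBP1 and an effect of transfection cannot be told apart between the FBP1 and wt arrays. The empty vector array's level is therefore given for the genes described in full; where only a difference from wt is given, the transfection's share in it is not shown. Each comparison shares an array with the others, so their values stand side by side and their likeness is not scored. With 1 array per group there was no replicate spread, no test and no p-value for any difference, and genes were counted by size. Whether separate cultures would differ as much was not tested.

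FBP1 is fructose-1,6-bisphosphatase 1, which removes a phosphate from fructose 1,6-bisphosphate and so runs gluconeogenesis against the phosphofructokinase step of glycolysis. Mesenchymal-like breast cancer lines are known for little FBP1, and sugar flux in such cells feeds lactate production, the pentose phosphate pathway and serine synthesis. The genes below are ordered from the transfected gene and the enzymes around it to the cell cycle, lipid synthesis, inflammatory signals, the cell surface and matrix, stress responses, and families that are silent in most adult tissues.

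The arrays were alike in depth: between 41.8% and 42.0% of 48105 probes were detected on each, and the median signals were 91.7, 94.6 and 93.7 intensity units on the FBP1, empty vector and wt arrays. Levels below are normalised log2 intensities, and a difference is the FBP1 level minus the wt level. A level is comparable between arrays for 1 probe, not between probes. A check for mixed-up samples, made after the data were seen, found that 1 of the 3 arrays did not match its label under 6 of 9 settings of the check and none under the other 3. CDKN2A, which MDA-MB-231 is known to have lost, was detected on the FBP1 array (level 5.72) and not on the empty vector array (4.64) or the wt array (4.66). MTAP, its neighbour in the genome, was likewise detected on the FBP1 array (5.32) and not on the empty vector array (4.86) or the wt array (4.58). The part of other cells or of a sample mix-up in the differences below was not tested.

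Against wt, 1111 genes were at least 1.5-fold higher with FBP1, which is 8.96% of those compared, and 992 were at least 1.5-fold lower, or 8%. Counts of list and family members below are at 1.5-fold and are to be read against these shares. At 2-fold the counts were 243 higher (1.96%) and 181 lower (1.46%), and at 4-fold 24 higher and 20 lower. The median difference was 0.005, the SD over genes 0.47, and 26.3% of the genes lay within 1.1-fold. Of the differences past 1.5-fold, 52.8% were upward. When the arrays were scaled to equal medians in place of quantile normalisation, the median of all genes moved to 0.29 and the upward share to 90.6%. Directions are therefore relative to the bulk of the genes. Under that scaling a small negative list median can turn positive through the shift of all genes alone. Taken relative to the median of all genes, the same scaling gave 1155 genes higher and 1180 lower. For comparison, the FBP1 array had 839 genes higher and 751 lower than the empty vector array by 1.5-fold, and the empty vector array had 493 higher and 414 lower than the wt array.

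**Figure D1:**
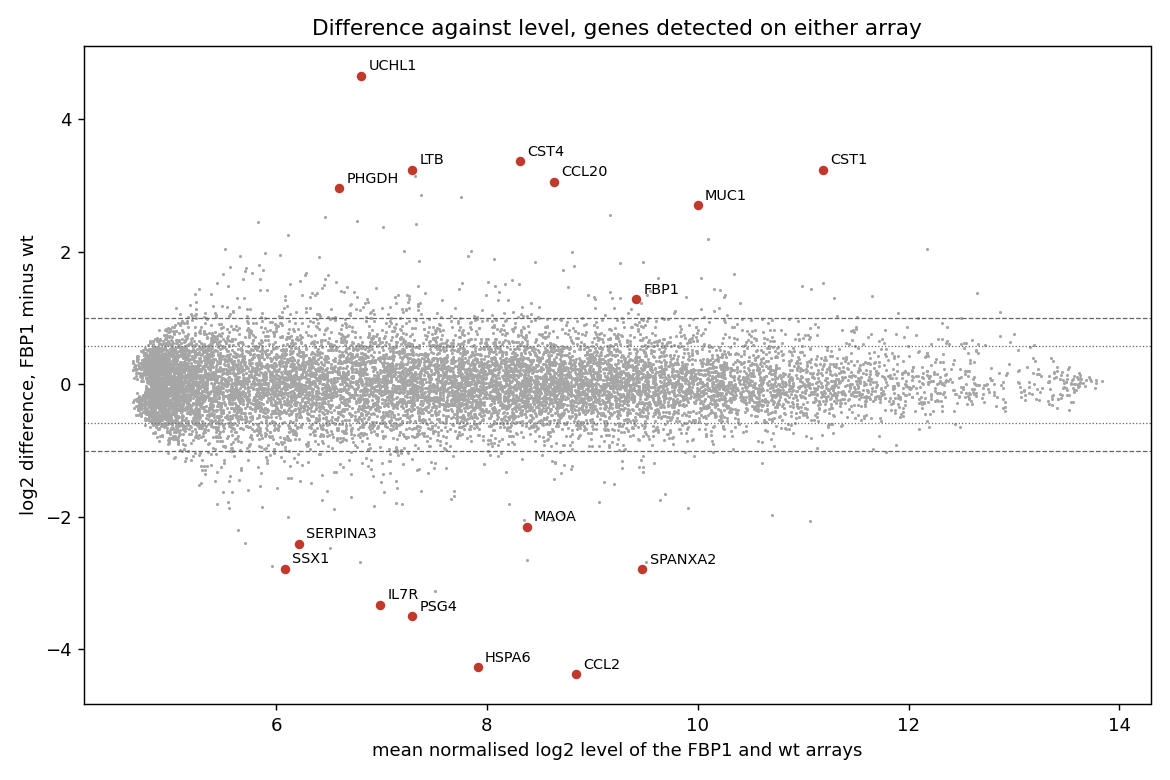
Each point is 1 gene detected on the FBP1 or the wt array; the horizontal axis is the mean of the normalised log2 levels of both arrays and the vertical axis the log2 difference, FBP1 minus wt. Dotted lines mark 1.5-fold and dashed lines 2-fold; UCHL1 (4.66) and CCL2 (-4.38) lie farthest from 0, and FBP1 lies at 1.29.

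The share of genes past 1.5-fold was highest in the second of 4 equal groups by level, at 22.8%, against 14.5% in the dimmest group, 16.7% in the third and 13.9% in the brightest. Of the 1111 genes higher by 1.5-fold, 289 had another detected probe, and in 226 of these every other probe was on the same side. Of the 992 lower genes, 247 had another detected probe, and in 209 of these every other probe was on the same side. A second probe was past 1.5-fold in the opposite direction for 3 higher and 4 lower genes. Neither count bears on a difference between cultures, since probes of a gene share the array.

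FBP1 itself had signals of 1064 with FBP1, 678.6 with empty vector and 530.8 in wt. Its levels were 10.06, 9.22 and 8.77, a difference of 1.29 from wt, or 2.44-fold. The gene was thus detected on all 3 arrays and highest where its vector was given, but 112 genes differed upward by more. A vector transcript that lacks the probe's target would not be counted. FBP2, the muscle isoform, was not detected on the FBP1 or the wt array.

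Around FBP1, the enzymes of sugar metabolism differed gene by gene rather than as a block. Of 12 detected genes of gluconeogenesis and glycogen, 3 were higher by 1.5-fold and 1 lower, with a median of 0.15. PC, pyruvate carboxylase, the entry step of gluconeogenesis, had levels of 8.65 with FBP1, 8.08 with empty vector and 7.85 in wt. PGM2, which interconverts sugar phosphates, had levels of 7.61, 8.12 and 8.45 on the same arrays, a difference of -0.84. Of 22 detected glycolytic genes, 3 were higher and 1 lower, with a median of 0.18. PFKFB4, which sets the fructose 2,6-bisphosphate level, was highest among them, at 10.26, 9.37 and 8.84, or 2.66-fold above wt. SLC2A3, a glucose transporter, followed at 10.60, 9.96 and 9.46. GAPDH differed by -0.16 and HK1 by -0.03, but 16 of the 22 genes lay above 0 and 6 below.

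PHGDH, the first enzyme of serine synthesis, reached 8.08 with FBP1, 4.65 with empty vector and 5.12 in wt. It was 7.80-fold above wt, and the empty vector array was at the wt array's side. The enzymes next to it did not share this: PSAT1 differed by -0.10, PSPH by 0.12 and SHMT2 by less than 0.01. Of the 9 detected genes of serine and one-carbon metabolism, 1 was higher and 2 were lower, TYMS at -0.64 and MTHFD1 at -0.61. In the pentose phosphate list, 0 of 8 were higher and 2 lower, PRPS1 at -0.67 and PRPS2 at -0.60, both makers of the ribose donor for nucleotides.

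In mitochondria, the lists stayed close to the bulk of all genes. Of 19 detected genes of pyruvate dehydrogenase and the TCA cycle, 2 were higher by 1.5-fold and 0 lower. Both were kinases that switch pyruvate dehydrogenase off, PDK4 at 0.61 and PDK2 at 0.60. Of 26 oxidative phosphorylation genes, 0 were higher and 2 lower, CYC1 at -0.63 and NDUFA9 at -0.62. The medians of the pentose phosphate (-0.05), serine (-0.02), TCA cycle (-0.17) and oxidative phosphorylation (-0.07) lists were small. Scaling to equal medians raised the median of all genes to 0.29 and thereby turned them positive. Relative to the median of all genes, that scaling gave -0.03, -0.02, -0.18 and -0.04. These medians lay between the 25th and 75th percentiles of all genes (-0.26 and 0.29), so no direction is given for them.

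The genes of G2 and mitosis were lower together. These genes build the spindle, drive entry into mitosis and start its end, and in dividing cells they peak late in the cycle. All 38 on the list were detected, and 28 of them, or 73.7%, were lower by at least 1.5-fold, against 8% of all genes; 0 were higher. Every difference lay between -2.05 and -0.32, with a median of -0.73. The list's median was -0.86 between the FBP1 and empty vector arrays and 0.07 between the empty vector and wt arrays.

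CENPE, a kinetochore motor, had levels of 7.33 with FBP1, 9.27 with empty vector and 9.38 in wt. A second CENPE probe read 6.70, 8.53 and 8.50. SGO2, which protects centromere cohesion, stood at 6.03, 7.35 and 7.39 on the FBP1, empty vector and wt arrays. KIF20A, a kinesin of late mitosis, stood at 8.82, 10.14 and 10.06. CDCA3, a trigger of mitotic entry, had 8.05, 9.38 and 9.24. CDC20, the activator of the anaphase-promoting complex, had 11.27, 12.17 and 12.29. DLGAP5, a spindle protein, had 9.36, 10.42 and 10.39. In each of these 6 the FBP1 array was apart and the 2 controls were close. The members nearest to 0 were PTTG1, the securin, at -0.32, and BIRC5, survivin, at -0.34.

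The promoters of such genes are known for a pair of elements, the CHR and the CCAAT box. Through the CHR, late cell cycle genes are held down outside their phase. In the RefSeq promoter table of build GRCh38.p14, 33 of the 38 genes had an entry, from 250 bases before to 50 after the start. The CHR letters TTTGAA, on either strand, occurred in 24 of the 33 (72.7%), against 14.5% of the compared genes with an entry and 18.2% of all promoters. CCAAT, on either strand, occurred in 81.8%, against 43.6% of the compared genes and 39.7% of all promoters. Both occurred in 60.6%, against 6.03% and 7.26%. Among all genes lower by 1.5-fold, 19.4% held the CHR letters. The list itself is made of genes known for this control, so the shares describe its members and not the difference. Where a gene had several promoter entries, it counted if any held the letters.

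Stretches of 150 bases before the start are shown for 5 members, chosen after the matches were known so that promoters with both motifs, with CCAAT alone and with neither stand side by side. Capitals mark the CHR letters or CCAAT, on the strand of the gene or as their reverse complements TTCAAA and ATTGG.
CDC20 (chr1:43358831-43358980, plus strand): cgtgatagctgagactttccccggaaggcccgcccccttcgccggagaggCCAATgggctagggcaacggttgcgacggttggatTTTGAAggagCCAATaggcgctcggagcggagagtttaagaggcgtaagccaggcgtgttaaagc
CCNB2 (chr15:59104996-59105145, plus strand): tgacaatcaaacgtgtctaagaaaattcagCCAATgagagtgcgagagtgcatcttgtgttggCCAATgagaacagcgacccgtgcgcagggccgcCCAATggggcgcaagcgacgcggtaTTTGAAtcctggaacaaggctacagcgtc
DLGAP5 (chr14:55191586-55191735, minus strand): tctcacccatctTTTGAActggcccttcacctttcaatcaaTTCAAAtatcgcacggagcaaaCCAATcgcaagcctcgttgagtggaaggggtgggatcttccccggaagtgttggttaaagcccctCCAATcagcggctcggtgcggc
KIF20A (chr5:138178962-138179111, plus strand): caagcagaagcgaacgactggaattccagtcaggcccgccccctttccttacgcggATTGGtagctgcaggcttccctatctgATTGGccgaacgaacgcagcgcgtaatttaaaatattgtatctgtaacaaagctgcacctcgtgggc
CENPE (chr4:103198344-103198493, minus strand): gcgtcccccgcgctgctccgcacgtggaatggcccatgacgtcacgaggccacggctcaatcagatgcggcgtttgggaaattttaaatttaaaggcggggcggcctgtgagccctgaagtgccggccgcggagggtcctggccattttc
CENPE, with neither set of letters in this stretch, had the lowest difference of the list, and CCNB2, the cyclin B2 gene, with both, stood among the 28 past 1.5-fold.

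S-phase genes were lower as well, by less. Of 35 detected DNA replication genes, 15 (42.9%) were lower by 1.5-fold and 0 higher, with a median of -0.52. RRM2, the subunit of ribonucleotide reductase made in S phase, had levels of 6.72 with FBP1, 7.62 with empty vector and 8.0 in wt. TIPIN, a replication fork protector, had 6.88, 7.87 and 8.06. MCM7 (-0.03) and PCNA (-0.30) differed by less than the list's median, but PCNA still lay below the 25th percentile of all genes, -0.26. In the list, 34 of the 35 lay below 0. Of 14 detected replication-dependent histone genes, 6 were lower and 0 higher, with a median of -0.37. H2AC18, at 8.85, 9.89 and 10.11, was lowest, followed by H2AC20 at 8.12, 9.45 and 9.34 and H4C8 at 5.62, 6.32 and 6.62. These genes have near-identical copies that a probe may not tell apart.

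Genes of ribosome assembly, most of them known MYC targets, were lower too. Of 26 detected, 13 were lower by 1.5-fold and 0 higher, with a median of -0.54. Here the median was -0.17 between the FBP1 and empty vector arrays and -0.32 between the empty vector and wt arrays. NLE1, a factor of the large subunit, had levels of 4.93, 6.27 and 6.37 on the FBP1, empty vector and wt arrays. ODC1, the first enzyme of polyamine synthesis, had 10.26, 11.08 and 11.19, and NOLC1, a nucleolar chaperone, 7.75, 7.86 and 8.65. MYC itself differed by -0.18. The small nucleolar RNAs that guide rRNA modification leaned the same way: 21 of 66 detected C/D box genes were lower and 0 higher (median -0.34), and 12 of 62 H/ACA box genes were lower and 1 higher (median -0.19, which became 0.05 with equal medians). Among those detected on both arrays, 18 of 49 C/D box and 9 of 45 H/ACA box genes were lower. SNORD96A was lowest, at 6.29, 7.36 and 8.09. Of 24 detected cytosolic ribosomal protein genes, 3 were lower and 0 higher, with a median of -0.06 that also turned positive under that scaling; RPL36A, at 7.59, 9.04 and 9.65, stood apart from the rest.

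**Figure D2:**
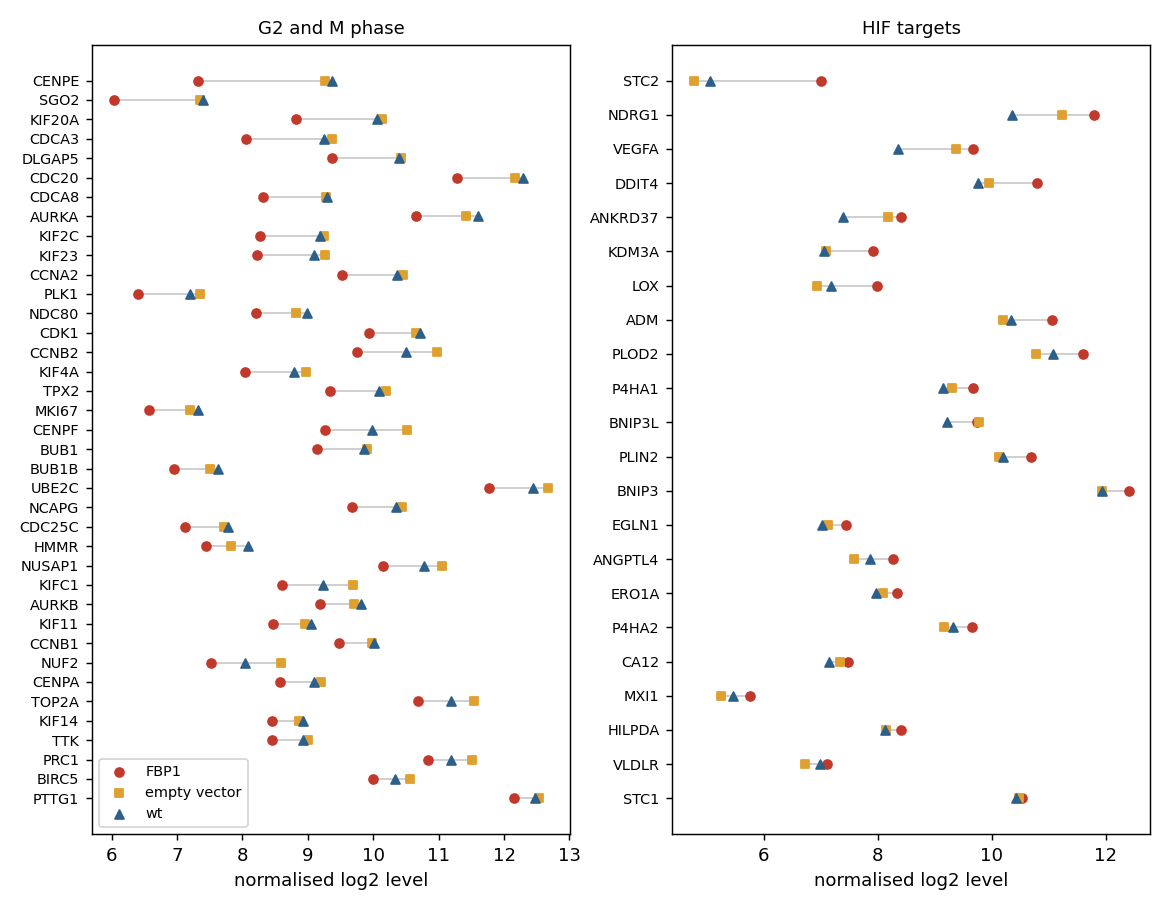
Normalised log2 level on the FBP1 (circles), empty vector (squares) and wt (triangles) arrays of the detected members of the G2 and M phase list (left) and of the HIF target list (right), ordered by size of difference. All 38 members on the left lie lower on the FBP1 array than on the wt array and all 22 on the right lie higher.

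Targets of the hypoxia-inducible factors (HIF), which switch cells toward glycolysis and new vessels when oxygen is short, were higher as a group. All 22 detected members lay above 0, from 0.10 to 1.95 with a median of 0.51, and 8 (36.4%) were past 1.5-fold, against 8.96% of all genes; 0 were lower. The median was 0.48 between the FBP1 and empty vector arrays and 0.02 between the empty vector and wt arrays. STC2, a secreted glycoprotein, had levels of 7.01, 4.78 and 5.06 on the FBP1, empty vector and wt arrays. NDRG1, a stress-induced gene, had 11.80, 11.24 and 10.36, and VEGFA, the vessel growth factor, 9.68, 9.38 and 8.36. DDIT4, an inhibitor of mTORC1, had 10.80, 9.95 and 9.76, and ANKRD37 8.42, 8.18 and 7.40. For NDRG1 and VEGFA the empty vector array lay nearer to the FBP1 array, and for STC2 nearer to wt. The core hypoxia letters ACGTG, on either strand, occurred in 11 of the 17 members with a promoter entry (64.7%), against 32.3% of compared genes, but also in 65.0% of the ribosome assembly genes, which were lower.

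Enzymes of cholesterol and fatty acid synthesis were higher in part. Of 20 detected cholesterol genes, 8 (40.0%) were past 1.5-fold and 0 lower, with a median of 0.34. HMGCS1, the synthase ahead of the rate-limiting step, had levels of 9.50, 8.53 and 8.04 on the FBP1, empty vector and wt arrays. MSMO1 had 10.31, 9.52 and 9.23, and LSS, which closes the sterol ring, 8.86, 7.64 and 7.83. SREBF2, the transcription factor of the pathway, was lowest at -0.46. Of 13 fatty acid genes, 2 were higher and 0 lower, with a median of 0.37: LPIN1, a phosphatidate phosphatase, at 10.93, 9.89 and 9.51, and SCD, the stearoyl-CoA desaturase, at 12.78, 11.95 and 11.85.

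The 12 highest among those detected on both arrays were CST4, LTB, CST1, CST2, CCL20, PHGDH, SCNN1A, ITGA10, MUC1, SLCO4A1, CSF1 and FAM83A. The 12 lowest were CCL2, HSPA6, PSG4, IL7R, SPANXD, SPANXA2, HSPA7, SPANXB1, SPANXC, DEFB103A, SERPINA3 and MAOA. For some of them the empty vector array lay beside wt, and for others beside FBP1.

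**Figure D3:**
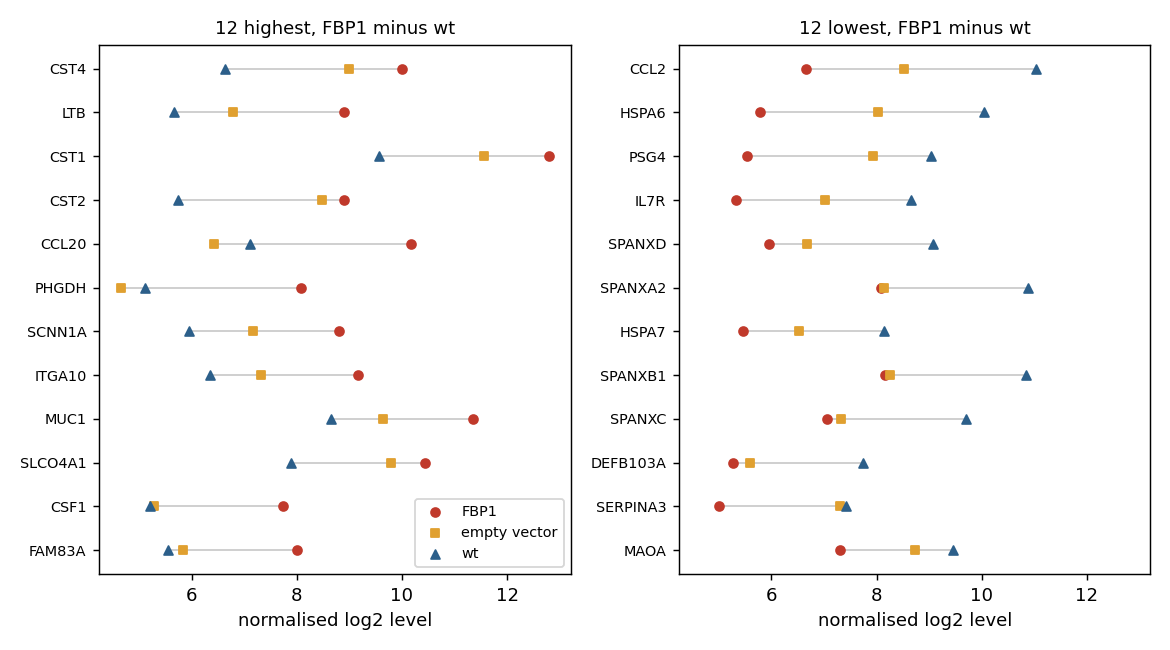
Normalised log2 level on the FBP1 (circles), empty vector (squares) and wt (triangles) arrays of the 12 genes with the highest (left) and the 12 with the lowest (right) difference, FBP1 minus wt, among genes detected on both arrays. For CCL20, PHGDH and CSF1 the empty vector array lies beside or below the wt array, and for SPANXA2 and SPANXB1 it lies beside the FBP1 array.

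Chemokines, which draw leukocytes, went both ways. CCL20 had levels of 10.17, 6.43 and 7.11 on the FBP1, empty vector and wt arrays, or 8.33-fold above wt. CCL2, the monocyte attractant, had 6.66, 8.52 and 11.04, or 20.8-fold below wt, with the empty vector array between. Of 10 detected chemokines 3 were higher and 1 lower, with a median of 0.40, and the neutrophil attractant CXCL8 differed by -0.08. CCL26, an eosinophil attractant, had 8.09, 6.89 and 6.61. Among 23 cytokines and receptors, 7 (30.4%) were higher and 4 (17.4%) lower, against 8.96% and 8% of all genes, with a median of 0.30. LTB, lymphotoxin beta, had 8.91, 6.79 and 5.67, and its second probe 6.76, 4.78 and 4.69. CSF1, the macrophage growth factor, had 7.73, 5.28 and 5.20. Another CSF1 probe read 7.04, 5.96 and 5.03, with the empty vector array between. A further one read 5.62, 4.73 and 4.73 and was not detected on the wt array. EBI3, a subunit of interleukins 27 and 35, had 8.29, 6.64 and 6.42, and TNFSF10, the death ligand TRAIL, 9.02, 8.23 and 7.45. LIF had 7.32, 6.42 and 6.11, and TNFSF15, a TNF family ligand, 8.07, 7.10 and 6.99. Among the lower ones, IL24 had 7.62, 7.46 and 8.65. IL7R, the interleukin 7 receptor chain, had 5.32, 7.01 and 8.65, and IL13RA2, a decoy receptor, 5.61, 4.89 and 7.49.

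Of 20 detected genes of the NF-kB pathway and its feedback, 6 were higher and 1 lower, with a median of 0.18. NFKBIA, the inhibitor that the pathway itself induces, had levels of 12.59, 11.72 and 11.59 on the FBP1, empty vector and wt arrays. PTGS2, cyclooxygenase 2, had 10.74, 8.45 and 9.77. Interferon-stimulated genes counted 8 higher (20%) and 3 lower (7.5%) of 40, against 8.96% and 8% of all genes. Their lower share was thus near that of all genes. The median was 0.18, and GBP2 led at 9.78, 9.28 and 8.63. OAS1 read -0.97 from its brightest probe and 0.04 as the mean of its detected probes, so its probes disagree. MHC class I genes counted 5 higher and 0 lower of 18 (median 0.22), with HLA-F at 11.83, 11.46 and 10.80. The list's median was -0.07 between the FBP1 and empty vector arrays and 0.38 between the empty vector and wt arrays. HLA genes share sequence that a probe may not separate. In complement, 2 of 10 were higher and 0 lower (median 0.30), and CFB, a protease of the alternative pathway, stood at 11.20, 9.27 and 9.01.

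CST1, CST2 and CST4 encode salivary-type cystatins, which block cysteine proteases. CST1 had levels of 12.80, 11.56 and 9.57 on the FBP1, empty vector and wt arrays, or 9.43-fold above wt. CST4 had 10.00, 8.99 and 6.63, and CST2 8.90, 8.48 and 5.75. On all 3 genes the empty vector array lay nearer to the FBP1 array than to wt. Of 7 detected type 2 cystatins 5 were higher by 1.5-fold and 0 lower, and among the 5 detected on both arrays 4 were higher. The cystatin genes are close copies, so their probes may share signal. Of 15 detected genes of the plasminogen system and serpins, 3 were higher and 5 lower, with a median of 0.12 that was -0.19 with the mean of probes. SERPINA1, alpha-1-antitrypsin, had 8.20, 7.49 and 5.83, while SERPINA3, antichymotrypsin, had 5.01, 7.30 and 7.42. F3, tissue factor, had 8.82, 9.54 and 10.14. Of 17 metalloproteases and inhibitors, all detected on the wt array but 14 on the FBP1 array, 4 were higher and 3 lower. TIMP3, an inhibitor, had 9.81, 9.14 and 7.81, and MMP1, a collagenase, 9.72, 10.07 and 11.69. TIMP1 had 13.41, 13.07 and 12.32, and MMP3, stromelysin 1, 5.56, 6.01 and 7.31.

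MUC1, a mucin of luminal cells, had levels of 11.35, 9.64 and 8.65 on the FBP1, empty vector and wt arrays, and a second probe 9.45, 7.92 and 6.79. SCNN1A, the alpha chain of the epithelial sodium channel, had 8.80, 7.17 and 5.94. JUP, plakoglobin, had 9.64, 9.03 and 8.60. CDH1 (E-cadherin) passed detection with FBP1 only, at 6.54 with FBP1, 4.66 with empty vector and 4.50 in wt. That is at least 3.61-fold under the processing used here, but a log2 difference of 0.91 in the authors' processed values. Of 20 detected genes of epithelial junctions and keratins 7 were higher and 1 lower, with a median of 0.12 that came to just under 0 in 1 alternative. All 20 were detected on the FBP1 array but 16 on the wt array. Members such as CDH1 thus entered only through the array where they are higher, which favours the higher count. MUC1 and EPCAM, among the higher ones, are also on the list of luminal markers below. Of 15 mesenchymal genes 1 was higher and 2 lower (median -0.12, which turned positive with equal medians). S100A4, a calcium-binding protein of motile cells, had 13.20, 12.78 and 11.15; CDH11, a mesenchymal cadherin, had 8.45, 9.39 and 9.96; VIM, vimentin, differed by -0.27.

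Of 24 detected collagens and matrix genes, 8 (33.3%) were higher and 4 (16.7%) lower, against 8.96% and 8% of all genes, with a median of 0.33. The list's median was 0.05 between the FBP1 and empty vector arrays and 0.27 between the empty vector and wt arrays. LAMA5, a laminin chain of basement membrane, had levels of 12.33, 11.68 and 10.99 on the FBP1, empty vector and wt arrays. The basement membrane collagen COL18A1 had 7.90, 7.50 and 6.84, and COL6A1 6.93, 6.44 and 5.87. COL8A1, a short-chain collagen, had 10.04, 11.03 and 12.10, and THBS1, thrombospondin 1, 8.77, 10.02 and 10.51. Of 16 integrins 4 were higher and 0 lower (median 0.30). ITGA10, a collagen-binding integrin, had 9.17, 7.32 and 6.34, while ITGB1, the common beta chain, differed by -0.04. ITGA1 had 7.40, 6.38 and 5.93, ITGA2 10.90, 10.04 and 9.59, and ITGB4, the hemidesmosome chain, 7.97, 8.04 and 6.75.

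Among targets of growth and developmental signals, the counts were small and are to be read against 8.96% of all genes higher and 8% lower. Wnt targets counted 1 higher and 1 lower of 10 (median -0.11), and YAP and TEAD targets 1 and 2 of 18 (median -0.20); both medians turned positive with equal medians. TGF-beta and BMP targets counted 3 higher and 2 lower of 18 (median 0.21), with ID3, an inhibitor of differentiation factors, at 5.67, 6.47 and 7.28 on the FBP1, empty vector and wt arrays. LTBP3, which binds latent TGF-beta, had 7.41, 6.47 and 6.24, and SMURF2, a ubiquitin ligase of the pathway, 5.09, 5.46 and 6.10. ERK targets and EGFR ligands counted 3 higher and 2 lower of 21 (median 0.16), with FAM83A, which binds growth factor signalling proteins, at 8.0, 5.83 and 5.54. The phosphatase gene DUSP1 had 9.63, 9.86 and 10.65.

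Most heat shock genes lay below 0, and a few were far lower. Of 17 detected, 14 lay below 0 and 3 above. By 1.5-fold 4 were lower and 0 higher, with a median of -0.40. HSPA6, an HSP70 made almost only under stress, had levels of 5.78, 8.02 and 10.05 on the FBP1, empty vector and wt arrays, or 19.4-fold below wt, and its second probe 4.82, 5.70 and 6.61. HSPA7, a close copy of HSPA6, had 5.45, 6.52 and 8.13, and shared signal between them cannot be told apart. HSPB8, a small heat shock protein, had 6.86, 7.51 and 8.13. HSPA8, the constitutive form, differed by -0.20. Of 18 genes of the unfolded protein response 4 were higher and 0 lower (median 0.13), with the chaperone HSPA5 at 10.23, 9.33 and 9.43.

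The integrated stress response counted 6 higher and 1 lower of 21 (median 0.21). STC2 and DDIT4, given above as HIF targets, are among those 6, so the counts of these lists overlap. TRIB3, a pseudokinase of this response, had levels of 10.19, 9.12 and 8.84 on the FBP1, empty vector and wt arrays, and GDF15, a secreted stress hormone, 9.63, 7.96 and 8.28. CTH, an enzyme of cysteine synthesis, had 7.90, 6.71 and 6.61. NRF2 targets counted 3 higher and 0 lower of 15 (median 0.06). AKR1C3, a ketosteroid reductase, had 11.18, 10.22 and 9.51, and all 3 detected AKR1C genes, which are near copies, were higher. p53 targets counted 1 higher (7.14%) and 2 lower (14.3%) of 14, against 8.96% and 8% of all genes, with a median of 0.13. TP53INP1 stood at 7.58, 7.20 and 6.43 and BAX, a death effector, at 8.13, 8.74 and 8.92.

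The SPANX, SSX and pregnancy-specific glycoprotein genes belong to families usually silent outside testis or placenta. All 5 detected SPANX genes, sperm proteins encoded on the X chromosome, were detected on both arrays and lower by 1.5-fold, with a median of -2.68. SPANXB1 had levels of 8.17, 8.26 and 10.84 on the FBP1, empty vector and wt arrays and SPANXA2 had 8.08, 8.15 and 10.87. For both, the FBP1 and empty vector arrays were close and wt stood apart, while SPANXD had 5.95, 6.67 and 9.07. None of the 5 detected SSX genes, another testis family, was detected on both arrays: 4 entered through the wt array alone and SSX4 through the FBP1 array alone, so their count says nothing of the family. SSX1 had 4.69, 4.88 and 7.48. Of 6 detected pregnancy-specific glycoproteins, 5 likewise entered through the wt array alone, and with bounds PSG5 (1.38-fold) and PSG9 (1.47-fold) did not reach 1.5-fold. PSG4, detected on both arrays, had 5.54, 7.93 and 9.04, and its other probes differed by -0.43 and -0.97. Members of these families are close copies and do not count as separate measurements.

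The S100 proteins, small calcium binders, counted 8 higher and 2 lower of 14 detected, with a median of 0.66, and 7 higher and 0 lower of the 11 detected on both arrays. The family's median was 0.19 between the FBP1 and empty vector arrays and 0.43 between the empty vector and wt arrays. S100A3 had levels of 10.41, 9.99 and 8.56 on the FBP1, empty vector and wt arrays, and S100A2 had 7.07, 7.06 and 5.69. Other families were counted as well, to be read against 8.96% of all genes higher and 8% lower. MAGE genes counted 0 higher and 0 lower of 3, HSPA genes 3 higher and 5 lower of 14, SLCO transporters 2 higher and 0 lower of 5, and MMP genes 1 higher and 3 lower of 10. All 12 families, named by symbol, were chosen after values were seen.

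**Figure D4:**
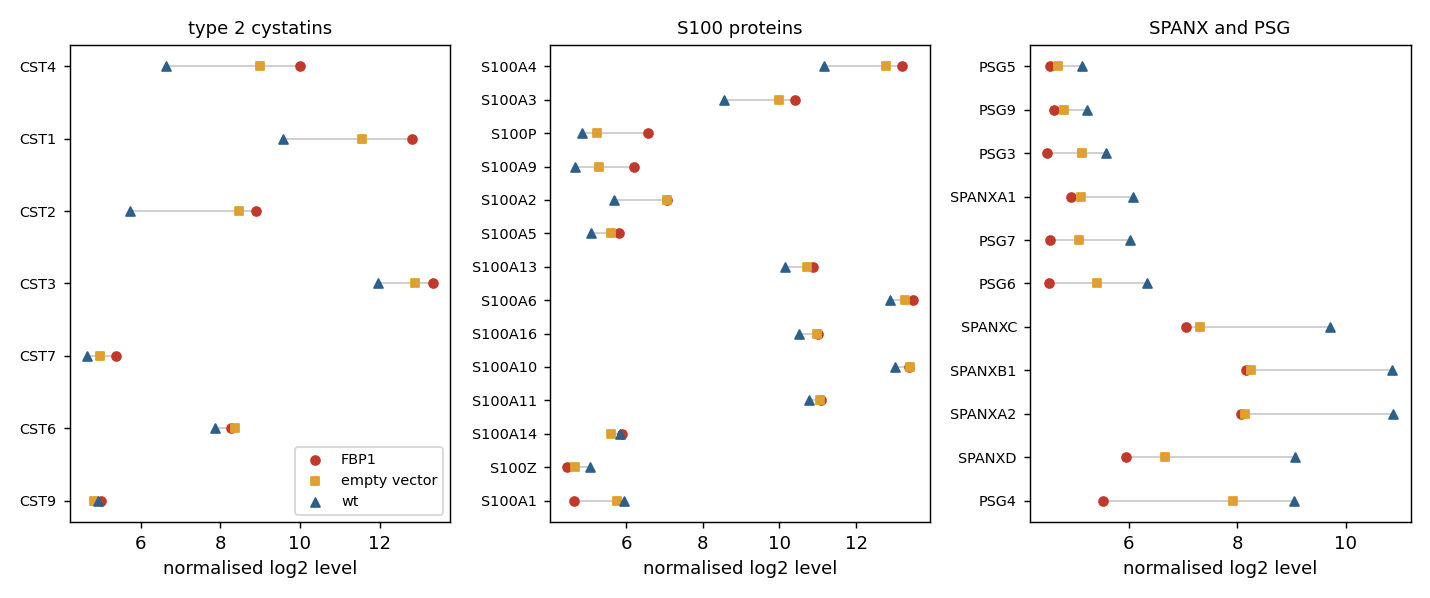
Normalised log2 level on the FBP1 (circles), empty vector (squares) and wt (triangles) arrays of the detected type 2 cystatins (left), S100 proteins (middle) and SPANX and pregnancy-specific glycoprotein (PSG) genes (right). CST1, CST2 and CST4 lie higher on the FBP1 array than on the wt array, all SPANX and PSG members lie lower, and for SPANXA2 and SPANXB1 the empty vector array lies beside the FBP1 array. Of the PSG genes, only PSG4 was detected on the FBP1 array.

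Some genes were detected on 1 array of the pair. Under the processing used here, their fold is a lower bound against the dimmest detected probe of the other array. The bounds do not hold across processings. In the authors' processed values the log2 differences were smaller, at 2.66 for UCHL1, 0.91 for CDH1 and -1.22 for HBE1. On the FBP1 array alone, UCHL1, a ubiquitin hydrolase of neurons, stood at 9.14 with FBP1, 4.65 with empty vector and 4.48 in wt, at least 21.8-fold higher than wt. TMEM98, a membrane protein, had 7.05, 4.77 and 4.61 on the FBP1, empty vector and wt arrays, although a second probe differed by 0.23. DPYSL3, CDH1, FOXA1, MYH15, CBS and S100A9 followed, with bounds from 3.84-fold down to 2.86-fold. On the wt array alone, HBE1, an embryonic globin, had 4.59, 5.66 and 7.33, at least 6.27-fold lower on the FBP1 array. SSX1, CT55, MIR99AHG, ADGRE1, THY1, PSG6 and SSX4B made up the rest, with bounds from 6.90-fold to 3.10-fold. The probes of CT55 disagree: 2 others differed by -0.95 and -0.21, and the last of these was detected on the FBP1 array too.

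Markers of other cell types were set beside these differences. Of 15 luminal breast markers 10 were detected, of which 6 were higher and 0 lower, with a median of 0.89 that was 0.53 in the authors' processed values and 0.30 with no detection filter, and their summed signal was 8999 with FBP1, 6654 with empty vector and 5797 in wt. FOXA1, a luminal transcription factor, had levels of 6.45, 4.58 and 4.68 on those arrays. It was detected on the FBP1 array alone and entered the count of higher markers only through it. Of the 10 detected markers 9 lay above 0, and KRT8, a luminal keratin, lay below at -0.31. KRT18 lay near 0, at 0.09, or -0.02 as the mean of its probes. SPDEF, an epithelial transcription factor, had levels of 6.89, 6.20 and 4.91, AGR2 9.72, 8.37 and 7.93, and ELF3 6.54, 5.87 and 5.51. By contrast, ESR1, PGR, GATA3, TFF1 and TFF3, which define that type, were not detected on the FBP1 or the wt array. Of 12 fibroblast markers 6 were detected, 2 higher and 1 lower, with summed signals of 839, 844.1 and 843.9, and PDGFRA, DCN and LUM were not detected. Of the blood cell markers on the array 6 of 11 were detected, 2 higher and 1 lower, with summed signals of 2827, 2649 and 3276, and PTPRC was not detected. CD14 had 9.03, 7.99 and 7.80, LAPTM5 6.56, 6.03 and 5.13, and LCP1 7.30, 7.71 and 9.10. Endothelial markers had 3 of 10 detected, 1 higher and 0 lower, with sums of 1574, 1742 and 1798, and CDH5 and VWF were not detected. ROBO4 had 7.32, 6.45 and 6.19. Neuronal markers had 9 of 12 detected, 2 higher (UCHL1 and DPYSL3, both detected on the FBP1 array alone) and 0 lower. Their sums were 2594, 2840 and 2351. The list of MDA-MB-231 features mixes genes of the line, such as VIM, with genes it lacks, such as CDKN2A and ESR1. Of its 14 members on the array 9 were detected, 2 higher and 0 lower, with a median of -0.12 that has no single meaning. The higher ones, CDKN2A and MTAP, were detected on the FBP1 array alone, and higher CDKN2A goes against a feature of the line. All these sums are of signals without background subtraction or normalisation. The median signals were 91.7, 94.6 and 93.7 on the FBP1, empty vector and wt arrays, so sums of dim genes are largely background. Near-equal sums therefore do not show equal shares of a cell type. In the luminal sum, MUC1 alone had signals of 2492, 878.4 and 494.9. In bulk RNA, more cells of a type and more RNA per cell cannot be told apart, and the part of other cells in the differences was not tested.

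**Figure D5:**
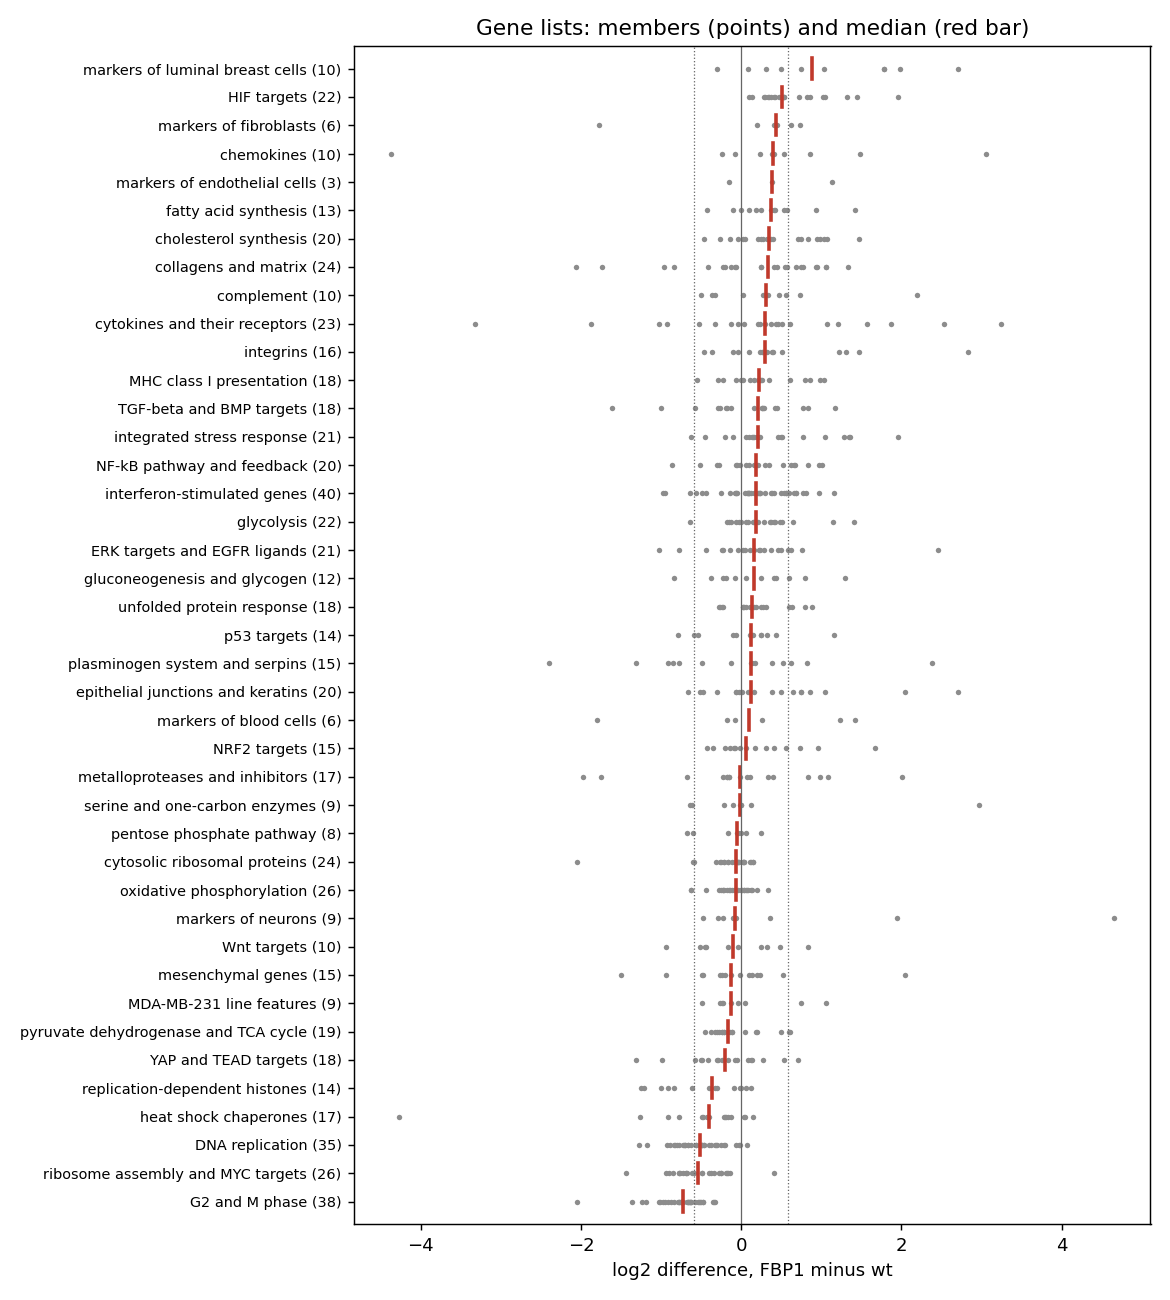
Log2 difference, FBP1 minus wt, of the detected members (grey points) of each of 41 gene lists, with the list's median as a red bar and the number of detected members in brackets; dotted lines mark 1.5-fold. The G2 and M phase list has a median of -0.73 and the luminal breast cell markers 0.89, which was 0.30 with no detection filter; the medians from -0.20 up to 0 turned positive when arrays were scaled to equal medians.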

How the data were processed

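The deposited table of signal intensity per probe and array is on a linear scale, without background subtraction or normalisation between arrays, and holds, per the file headers, a detection p-value beside each intensity. A second deposited table holds intensities the authors normalised by a method not given in the sources used here; it served as an alternative. Leaving out 2 of 48107 probes, which lacked a value, the platform annotation gave 1 gene to 30112; the 8 with several genes were dropped and the 17985 unnamed ones kept apart. The 3 arrays were background-corrected and quantile normalised together with neqc (limma 3.58.1, R 4.3.3, offset 16), and values were taken as log2. Later steps used Python 3.11.15, numpy 2.4.6 and pandas 2.3.3, with matplotlib 3.10.9 for plots. The brightest probe stood for its gene.

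With 1 array per group, genes were counted at 1.5-fold and 2-fold, and the number of arrays limits the precision. For a gene undetected on the dimmer array the fold is a bound against the dimmest detected probe there, or the gene's own level if higher. Such a bound holds for this processing only. The counts use the measured differences; with such bounds they were 1086 higher and 967 lower. Named genes were FBP1, the 12 highest and 12 lowest on both arrays, the 8 largest bounds on each single array, and, of each of 41 lists, the 3 highest and 3 lowest members and any past 2-fold. The text gives those past 2-fold and part of the others; which of the others, and list members named beyond the rule (CCNB2, HK1, HSPA8, ITGB1, MYC, PCNA and PSAT1) and family members, was chosen after values were seen. Provisional names were passed over, and 1 other gene among the highest is not reported here. The members and lists were chosen with earlier results of these data known. Some genes stand on more than 1 list, among them STC2, DDIT4, MUC1, EPCAM, F3 and BMP4, so the lists are not separate results. The steps were tested on simulated data.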

Additional observations from a re-analysis of the deposited data

Results flagged for a closer look

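Of 5687 detected probes with no gene name, 85 (1.49%) were at least 2-fold higher and 48 (0.844%) at least 2-fold lower on the FBP1 array than on the wt array. These probes entered no comparison above. The 3 highest of those detected on both arrays stood higher on the FBP1 array than on both controls. Probe ILMN_3200140 had levels of 9.46, 5.91 and 6.83 on the FBP1, empty vector and wt arrays, a difference of 2.63 from wt. Probe ILMN_1903914 had 8.90, 6.59 and 6.51, a difference of 2.39. Probe ILMN_1701424 had 9.41, 8.24 and 7.30, a difference of 2.11. The lowest differences were larger in size. Probe ILMN_1680689 had 7.99, 8.33 and 10.95, a difference of -2.96. ILMN_3244876 (-2.89) and ILMN_1696731 (-2.69) followed. For each of these lowest probes the empty vector array lay nearer to the FBP1 array than to wt. Their genes were not identified here.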

How the results depend on the processing

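The main counts at 1.5-fold were 1111 higher and 992 lower, and at 2-fold 243 and 181. They moved by over 1.5 times in 4 alternatives: with an offset of 50, 656 higher and 494 lower (124 and 82 at 2-fold); with normexp on all probes, also at an offset of 50, 605 and 435 (102 and 71); from the authors' own normalised table, 416 higher and 258 lower (71 and 43); and with median scaling, 3023 and 315 (736 and 89). In the other 6 they stayed within 1.5 times, which include median scaling relative to the median of all genes, an alternative chosen after seeing the data. All 41 list medians stayed within log2 of 1.5 of their value in all 10 alternatives, a limit set here because no replicate spread exists. That limit is wider than most of the medians themselves, so a median could reach 0 or change sign within it. The luminal median went from 0.89 to 0.30 and stayed inside. In all, 15 medians changed sign in at least 1 alternative, most with median scaling. Without a detection filter those of blood (-0.06) and endothelial markers (-0.01) did so. Of 2678 gene values, 2553 stayed within that limit, 124 moved by more, and of those past 1.5-fold 1 reversed, OAS1, which read 0.0392 as the mean of its probes. Smaller values changed sign too, so that 37 of 271 genes did so in at least 1 alternative, among them RPS24 (0.15, and -0.52 as the mean of probes). Of 118 family medians 5 moved by more. The cause of each move was not tested. No paired analysis was possible because each group has 1 array. Low signal limits genes near background, where offset and filter weigh most.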
